A study of Mus musculus with 46 samples.

Results

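The dystrophin complex and the costamere tie the contractile machinery of a muscle fibre to its membrane and to the matrix outside. Dystrophin, or its relative utrophin, binds actin inside the fibre and the dystroglycan and sarcoglycan proteins in the membrane, and dystroglycan binds laminin in the basement membrane. Integrin α7 with its β1 partner forms a parallel link to laminin, vinculin sits at these actin attachment sites, and desmin filaments join the Z-discs to each other and to the costameres. Loss of several of these proteins in people or mice causes muscular dystrophy or myopathy. The 9 genes described here, *Dmd*, *Utrn*, *Dag1*, *Sgca*, *Sgcb*, *Sgcd*, *Itga7*, *Vcl* and *Des*, were chosen by name and found by Ensembl gene ID. They were 9 of the 17859 genes present in either of the study's 2 count tables, and all 9 were present in both.

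The study asked how loss of *Actn3*, the gene for the fast-fibre Z-disc protein α-actinin-3, alters the response of mouse muscle to androgens. Bulk RNA sequencing covered 45 libraries in 8 groups from 2 experiments, all on the C57BL/6J strain, with wild-type (WT) and *Actn3* knockout (KO) mice in each. In the orchidectomy experiment, males underwent removal of the testes (ORX) or sham surgery at 8 to 10 weeks of age, and the gastrocnemius was taken 12 weeks later. In the dihydrotestosterone (DHT) experiment, females received a silastic implant of 1 cm, empty or packed with 10 mg of the androgen, at 4 to 5 weeks of age, and the spinalis was taken after 6 weeks. The WT-sham, WT-ORX and KO-sham groups held 6 libraries each and KO-ORX held 5, where 6 samples were described and 1 had no column of counts. WT-empty and KO-empty held 5 libraries each, and WT-DHT and KO-DHT held 6 each. Muscle, sex, age and treatment all differed between the experiments, so their parts in any difference between the experiments cannot be told apart, and groups were compared within an experiment only. The labels describe each library as a separate sample, and the p-values below treat the libraries as separate mice.

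Total counts per library, in megacounts (M), ran from 43.4 to 50.3 M in WT-sham (median 47.1 M), from 39.9 to 55.4 in WT-ORX (median 45.6), from 29.5 to 37.5 in KO-sham (median 34.3) and from 26.7 to 48.5 in KO-ORX (median 41.6). In the DHT experiment they ran from 37.3 to 51.2 in WT-empty (median 47.0), from 34.8 to 53.9 in WT-DHT (median 52.0), from 42.5 to 47.8 in KO-empty (median 44.1) and from 34.9 to 51.7 in KO-DHT (median 44.2). KO-sham had the lowest median depth. Its replicate 1 stood apart from the other KO-sham libraries, with 40.4% of its counts in its 10 most abundant genes against 35.3 to 37.3%, and 10.7% in mitochondrial genes against 14.5 to 17.8%. Replicate 5 of WT-DHT stood further apart on the first measure, with 43.2% against 34.5 to 39.4% in its group, and had the lowest total of that group and the lowest scaling factor of all libraries (0.846). Levels are given in CPM, the counts of a gene per megacount of its library after trimmed-mean scaling, as mean ± SD.

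*Actn3* itself followed the genotype labels in every library. In WT muscle its mean level was 6622 CPM (WT-sham), 8867 CPM (WT-ORX), 9669 CPM (WT-empty) and 7104 CPM (WT-DHT), and the lowest WT library held 5977 CPM. In KO muscle the means were 45.7 CPM (KO-sham), 45.3 CPM (KO-ORX), 69.6 CPM (KO-empty) and 68.0 CPM (KO-DHT), and the highest KO library held 83.2 CPM. The 10 myofibre markers, led by *Ttn*, were abundant in every group, with summed means of 202069 CPM or more. In bulk muscle, fewer cells of a type and less RNA per cell cannot be told apart, for the costamere genes or for any other.

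A difference counts as called when q is at most 0.01, or at most 0.05 for the interaction of genotype with treatment. Here q is the edgeR quasi-likelihood p-value adjusted by the method of Benjamini and Hochberg (Benjamini-Hochberg) for every gene in the table. Most of the 9 genes did not pass in most comparisons, and *Vcl* and *Des* accounted for most of the calls. After ORX in WT, 2 of the 9 fell, *Vcl* and *Des*, where 5.45% of all genes were called (2.04% higher, 3.41% lower). After ORX in KO, 1 of the 9 fell, *Des*, where 5.57% of all genes were called (1.99% higher, 3.58% lower). Under DHT in WT, 3 of the 9 rose, *Vcl*, *Des* and *Itga7*, beside 11.3% of all genes called (6.63% higher, 4.64% lower), and all 3 calls held without WT-DHT replicate 5, the library described above. Under DHT in KO, edgeR called 0 of the 9, with 5 at an unadjusted p under 0.05, 2 called by DESeq2 and 0 by limma-voom, beside 4.62% of all genes (2.86% higher, 1.75% lower).

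Between genotypes, KO-sham differed from WT-sham in 3 of the 9, with *Sgcb* higher and *Vcl* and *Des* lower, where 5.3% of all genes were called (2.48% higher, 2.82% lower). KO-ORX differed from WT-ORX in 4 of the 9, with *Dmd*, *Sgcb* and *Sgcd* higher and *Des* lower, beside 3.8% of all genes (1.07% higher, 2.73% lower). KO-empty differed from WT-empty in 1 of the 9, *Itga7*, which was higher, beside 4.25% of all genes (1.75% higher, 2.5% lower). KO-DHT differed from WT-DHT in 1 of the 9, *Vcl*, which was lower, beside 11.6% of all genes (5.13% higher, 6.51% lower). The interaction of genotype with DHT was called for 1 of the 9, again *Vcl*, beside 3.24% of all genes (1.34% higher, 1.9% lower). The interaction of genotype with ORX was called by edgeR for 0 of the 9, with 2 at an unadjusted p under 0.05 and 0 called by DESeq2 or limma-voom, beside 0.0228% of all genes (0.0171% higher, 0.00571% lower), which is 4 genes where DESeq2 called 127. The counts for the 9 genes are small, and comparisons within an experiment share groups, so the calls above are not independent of each other.

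The balance of higher and lower calls over all genes depended on the scaling and the tool. Under library-size scaling it turned for ORX in WT (422 higher and 354 lower, against 358 and 597 with trimmed-mean scaling), ORX in KO (707 and 193, against 348 and 627), DHT in WT (771 and 997, against 1126 and 788), KO-empty against WT-empty (282 and 251, against 298 and 424), KO-DHT against WT-DHT (1295 and 687, against 872 and 1106) and the interaction with DHT (284 and 231, against 228 and 322). With DESeq2 it turned for KO-sham against WT-sham (668 and 622, against 434 and 494) and for the interaction with ORX (50 and 77, against 3 and 1), and with limma-voom for that interaction (4 and 6). The directional shares above are those of edgeR with trimmed-mean scaling. In the comparisons not named for them here, DESeq2 and limma-voom kept the balance. Leaving out a single library also moved the number of genes called, to between 2 and 38 for the interaction with ORX (4 with all libraries), between 589 and 1116 for ORX in KO and between 450 and 700 for KO-empty against WT-empty (722).

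The median log2 fold change of the 9 genes was -0.02 (ORX in WT), 0.04 (ORX in KO), 0.12 (DHT in WT) and 0.08 (DHT in KO), beside medians over all genes of 0.01, 0.01, -0.01 and -0.01. Between genotypes the member medians were 0.06 in sham muscle, 0.13 after ORX, 0.02 with empty implants and 0.00 with DHT, beside medians over all genes of -0.01, 0.01, 0.01 and 0.01. The interaction medians were 0.13 with ORX and -0.11 with DHT, beside 0.00 and -0.01 over all genes. By sign, 8 of the 9 values were positive for the interaction with ORX, 7 of the 9 were negative for the interaction with DHT and 7 of the 9 were negative for ORX in WT, while in every other comparison 5 or 6 of the 9 were positive. These sign counts hold for edgeR with trimmed-mean scaling. Under library-size scaling *Dmd* (0.018), *Utrn* (0.033) and *Sgcb* (0.034) turned positive for ORX in WT. Values near 0 turned in other comparisons too, as listed in the last section. The sign counts were not tested, and the genes were measured in the same libraries.

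**Figure D1:**
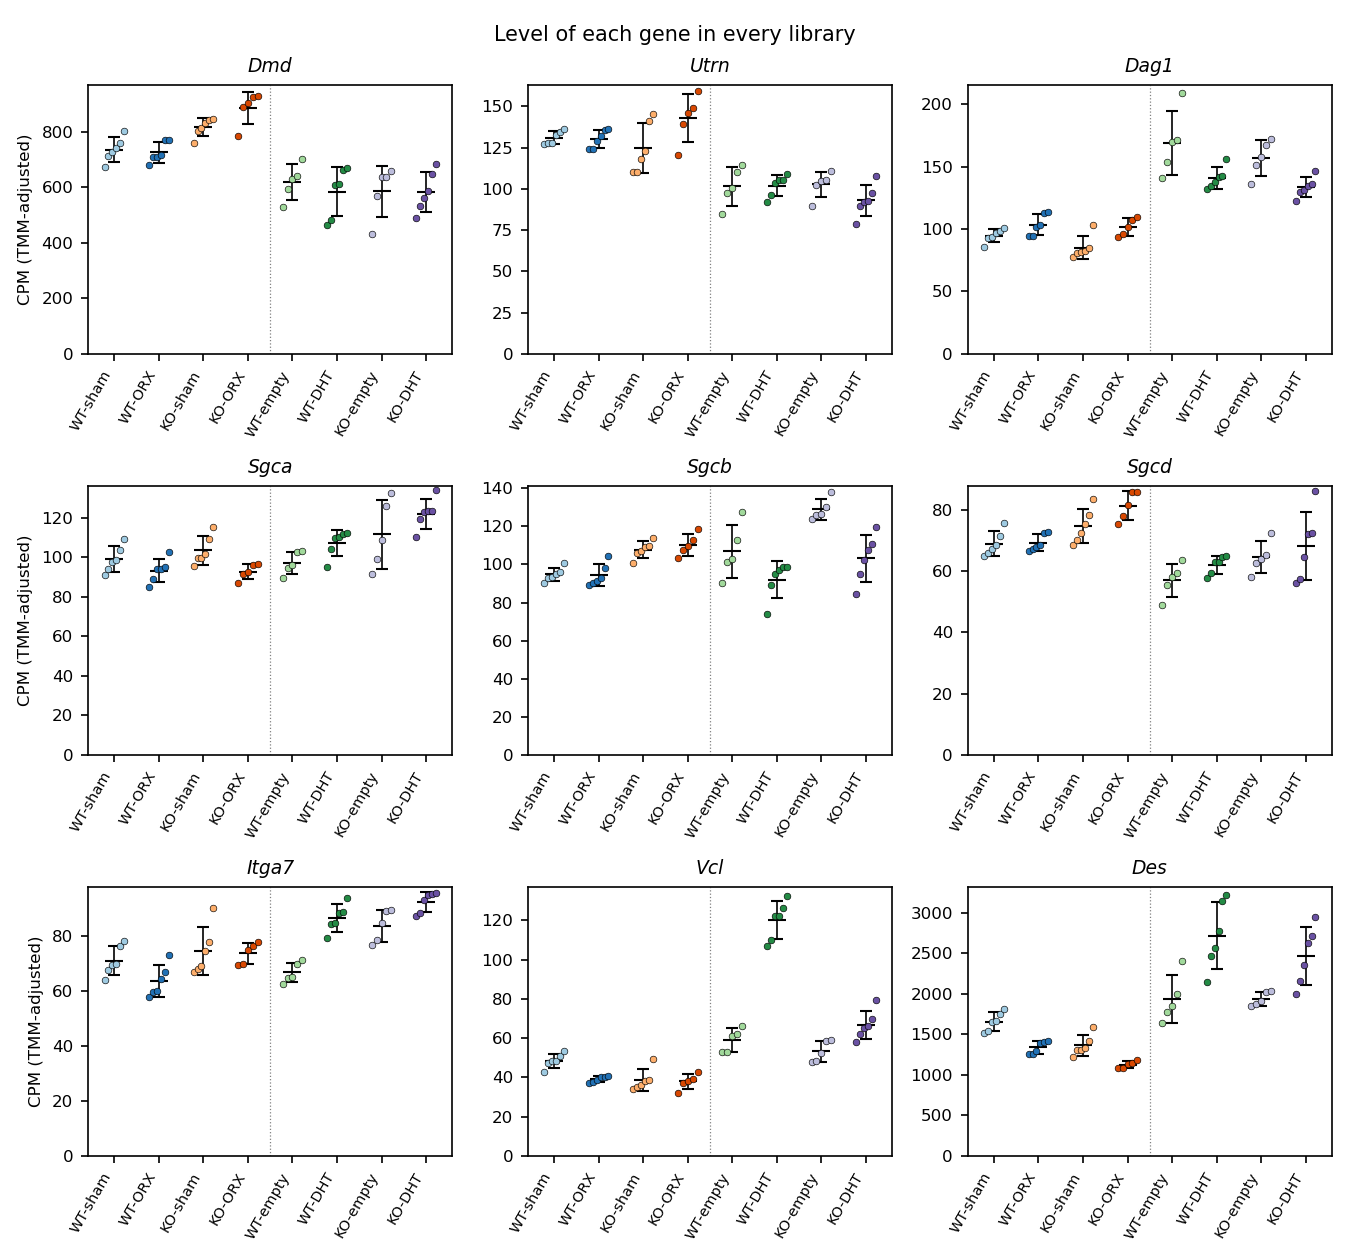
Levels in CPM of the 9 genes in each of the 45 libraries (points; y axes in CPM, 1 panel per gene), with the mean and SD of each group, for the 4 ORX groups left of the dotted line and the 4 DHT groups right of it. *Vcl* in WT-DHT lies between 107 and 132 CPM, above every other library, while *Utrn* and *Dmd* overlap between most groups.

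**Figure D2:**
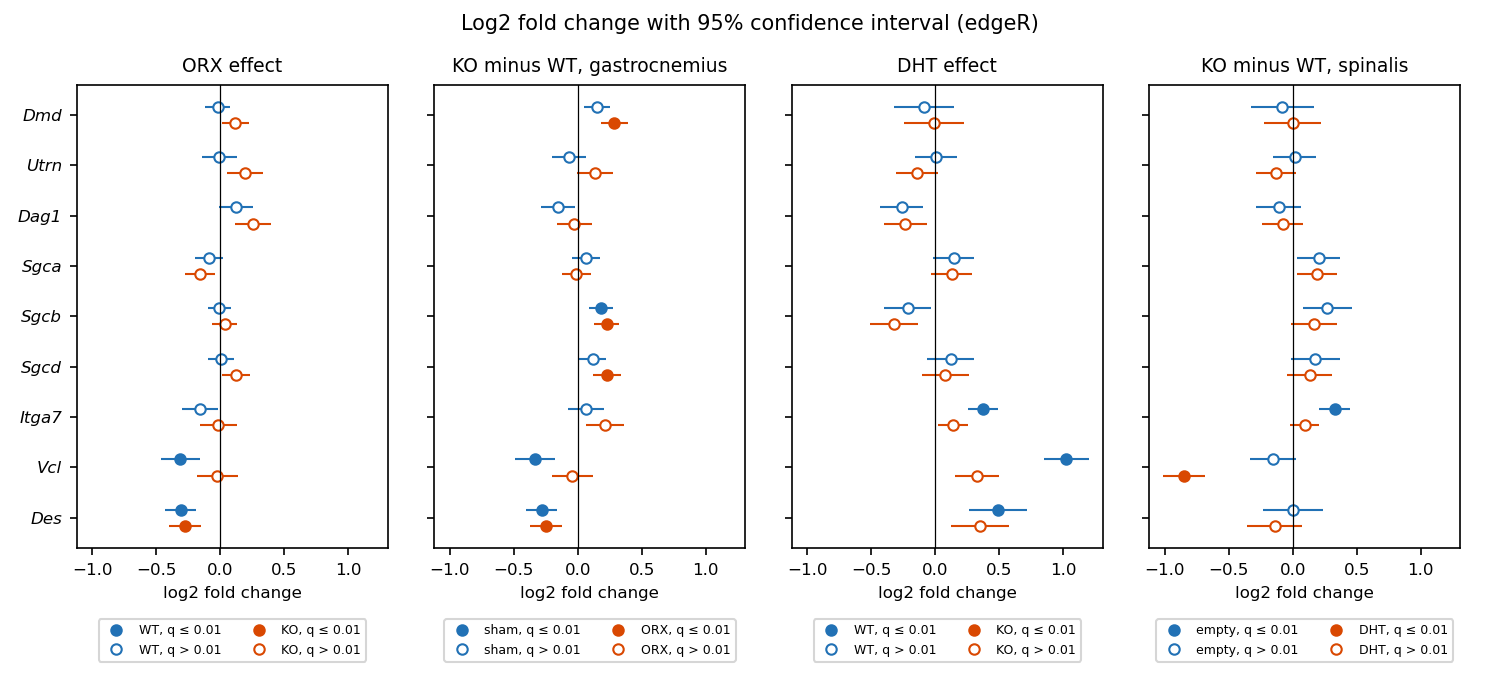
Log2 fold changes of the 9 genes with 95% confidence intervals in the 4 treatment and genotype comparisons of each experiment; filled points have q at most 0.01. *Vcl* under DHT in WT, at 1.02, is the largest change, and *Des* lies below 0 in each ORX experiment comparison.

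Compared per kilobase of exon, *Des* had the highest mean level of the 9 in all 8 groups, from 299.9 CPM per kilobase in KO-ORX to 725 in WT-DHT, and *Sgca* came next, from 53.4 in KO-ORX to 70.4 in KO-DHT. *Dmd*, *Sgcb* and *Dag1* formed the middle of the order, at 13.4 to 37.2 CPM per kilobase. *Vcl* was the lowest in the 4 gastrocnemius groups, at 4.62 to 5.91, and *Utrn* the lowest in the 4 spinalis groups, at 5.44 to 6.00. This order holds for the full exon length, of which *Vcl* shares 25.5% with another gene, as described below. *Vcl* stood above *Itga7*, *Sgcd* and *Utrn* in WT-DHT, at 14.7 CPM per kilobase. In that group the mean ratio of *Des* to *Vcl* per kilobase was 49.4 ± 5.99 (SD, n = 6), against 72.8 in WT-empty, 80.5 in KO-empty and 81.1 in KO-DHT.

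*Vcl* encodes vinculin, the actin-binding protein of focal adhesions and costameres (ENSMUSG00000021823, GRCm38 chromosome 14, 20929398 to 21033676, plus strand). In the spinalis, WT-empty libraries held 52.8, 53.0, 60.9, 62.1 and 66.2 CPM of *Vcl*, and WT-DHT libraries ran from 107 to 132 CPM (median 122). KO-empty libraries held 47.6, 48.2, 52.4, 58.6 and 58.9 CPM, and KO-DHT libraries ran from 58.2 to 79.3 CPM (median 65.8). Every WT-DHT library was thus above every library of the other 3 groups, while KO-DHT overlapped WT-empty and, by its lowest library, KO-empty. *Vcl* rose 2.03-fold under DHT in WT (log2 fold change 1.02, SE 0.08, 95% interval 0.85 to 1.20, q = 1.98e-09, higher in all 6 libraries). In KO its log2 fold change was 0.33 (SE 0.08, 95% interval 0.16 to 0.50), with 5 of 6 libraries above every KO-empty library, and q = 0.0121 missed the threshold. Without KO-DHT replicate 6 that q was 0.00704, and under DESeq2 it was 0.00358, in a range over the alternatives of 0.00358 to 0.0333. The difference between genotypes in the response to DHT was called (log2 difference -0.69, SE 0.12, 95% interval -0.94 to -0.45, q = 0.000759). With DHT, *Vcl* was lower in KO than in WT by a log2 fold change of -0.85 (SE 0.08, q = 2.77e-08, lower in all 6 libraries), while with empty implants the value was -0.15 (q = 0.312). The calls under DHT in WT, between genotypes with DHT and for the interaction held without any single library and under every alternative setting.

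In the gastrocnemius, WT-sham libraries ran from 42.6 to 53.4 CPM of *Vcl* (median 48.3) and WT-ORX from 37.0 to 40.4 (median 39.4). KO-sham ran from 33.8 to 49.3 (median 37.0), and the KO-ORX libraries held 31.9, 37.0, 38.4, 39.3 and 42.7 CPM. WT-sham thus had the highest mean and did not overlap WT-ORX, its neighbour in the order of means, but it overlapped KO-sham and KO-ORX. WT-ORX, KO-sham and KO-ORX also overlapped each other. *Vcl* fell after ORX in WT (log2 fold change -0.31, SE 0.07, q = 0.00587, lower in all 6 libraries). The call was lost without WT-sham replicate 1, 3, 4 or 5 or without WT-ORX replicate 2, 3 or 4 (q from 0.0116 to 0.0189, log2 fold change from -0.31 to -0.28), and under library-size scaling or thinning (q over the alternatives from 0.000691 to 0.0163). In KO after ORX the value was -0.02 (q = 0.906), and the interaction, at 0.29 (unadjusted p of the edgeR test 0.0119, q = 0.342), was not called. *Vcl* was also lower in KO-sham than in WT-sham (-0.33, SE 0.07, q = 0.00361, 5 of 6 libraries below every WT-sham library). That call was lost without KO-sham replicate 3, 4 or 6 or WT-sham replicate 5 (q from 0.0106 to 0.0129), and with only those groups fitted (q over the alternatives from 0.000701 to 0.0147). The KO-sham library above the others, replicate 1, is the library described above as apart, and without it the log2 fold change was -0.42 (q = 6.03e-05).

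*Des* encodes desmin, the intermediate filament of mature muscle (ENSMUSG00000026208, GRCm38 chromosome 1, 75360329 to 75368579, plus strand). Its level in the gastrocnemius ran from 1517 to 1816 CPM in WT-sham (median 1661), from 1254 to 1418 in WT-ORX (median 1346) and from 1214 to 1596 in KO-sham (median 1323), and the KO-ORX libraries held 1079, 1090, 1133, 1145 and 1183 CPM. KO-ORX was the lowest group, and its highest library lay below every library of the other 3 groups. *Des* fell after ORX in WT (log2 fold change -0.31, SE 0.06, 95% interval -0.43 to -0.19, q = 0.000575, lower in all 6 libraries). It also fell after ORX in KO (-0.28, SE 0.06, q = 0.00343, lower in all 5 libraries), a call lost without KO-ORX replicate 1 (q = 0.0116) or replicate 5 (q = 0.0130), under library-size scaling and with only those groups fitted (q over the alternatives from 0.000146 to 0.0289). KO-sham was below WT-sham (-0.28, SE 0.06, q = 0.00155, 5 of 6 libraries below every WT-sham library), and this call held without any single library and was lost with only those groups fitted (q over the alternatives from 8.84e-05 to 0.0129). KO-ORX was below WT-ORX (-0.25, SE 0.06, q = 0.00936, all 5 libraries below). That call, close to the threshold, was lost without KO-sham replicate 2, 3, 5 or 6, any of the 5 KO-ORX libraries, WT-sham replicate 3, 4 or 6, or WT-ORX replicate 1, 3, 4 or 6 (q from 0.0109 to 0.0297), and under library-size scaling or thinning (q over the alternatives from 0.00197 to 0.0132).

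In the spinalis, WT-empty libraries held 1643, 1781, 1844, 2002 and 2411 CPM of *Des*, and WT-DHT libraries ran from 2142 to 3220 CPM (median 2672). KO-empty libraries held 1845, 1874, 1909, 2024 and 2040 CPM, and KO-DHT libraries ran from 2000.5 to 2945 CPM (median 2491). The DHT groups were the higher ones in both genotypes, with an overlap of single libraries. *Des* rose under DHT in WT (log2 fold change 0.49, SE 0.11, 95% interval 0.26 to 0.72, q = 0.00223, 5 of 6 libraries above every WT-empty library). Without WT-empty replicate 4 its value was 0.44 and the call was lost (q = 0.0102), as it was with only those groups fitted (q over the alternatives from 0.000169 to 0.0101). In KO the log2 fold change of 0.35 (SE 0.11, q = 0.0432, 5 of 6 libraries above) missed the threshold. The genotypes did not differ at the threshold with empty implants (0.00) or with DHT (-0.14). *Des* and *Vcl* therefore had the same signs in both WT comparisons of treatment, below sham after ORX and above the empty implant with DHT.

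*Itga7* encodes the integrin α7 chain, the laminin receptor of mature muscle fibres (ENSMUSG00000025348, GRCm38 chromosome 10, 128933818 to 128958282, plus strand). WT-empty libraries held 62.6, 64.6, 65.1, 69.7 and 71.0 CPM, and WT-DHT libraries ran from 79.2 to 93.8 CPM (median 86.5). KO-empty libraries held 76.7, 78.3, 84.6, 89.0 and 89.2 CPM, and KO-DHT libraries ran from 87.0 to 95.5 CPM (median 93.7). WT-empty was thus the low group, below every library of the other 3. *Itga7* rose under DHT in WT (log2 fold change 0.38, SE 0.06, 95% interval 0.26 to 0.49, q = 2.50e-05, higher in all 6 libraries), a call that held without any single library and under every alternative. It was also higher in KO-empty than in WT-empty (0.33, SE 0.06, q = 0.000803, higher in all 5 libraries). This second call held without any single library and was lost when only those groups were fitted (q = 0.0164, in a range over the alternatives of 1.30e-05 to 0.0164). Under DHT in KO the log2 fold change was 0.14 (q = 0.110), and the interaction, -0.23 (unadjusted p of the edgeR test 0.00721, q = 0.126), was not called. In the gastrocnemius its group means lay between 63.5 CPM (WT-ORX) and 74.2 CPM (KO-sham), neighbours overlapped, and no *Itga7* comparison passed, the nearest being KO-ORX against WT-ORX (0.21, q = 0.0757).

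*Dmd* encodes dystrophin (ENSMUSG00000045103, GRCm38 chromosome X, 82948870 to 85206141, plus strand). In the gastrocnemius its level ran from 673 to 803 CPM in WT-sham (median 732), from 678 to 771 in WT-ORX (median 713) and from 757 to 844 in KO-sham (median 822), and the KO-ORX libraries held 783, 889, 902, 922 and 927 CPM. The KO groups were the higher ones, and all 5 KO-ORX libraries were above every WT-ORX library. The KO-ORX against WT-ORX difference was called (log2 fold change 0.29, SE 0.05, 95% interval 0.18 to 0.39, q = 0.000476), and it held without any single library and under every alternative. In sham muscle the same difference was 0.15 (q = 0.0513), which missed the threshold, and the interaction of genotype with ORX for *Dmd* was 0.14 (q = 0.548). ORX gave *Dmd* values of -0.02 in WT (q = 0.868) and 0.12 in KO (q = 0.145). The KO value passed under library-size scaling (0.23, q = 0.00563, in a range over the alternatives of 0.00563 to 0.226), a setting that moved the median of all genes there from 0.01 to 0.12. In the spinalis the *Dmd* means lay between 582.5 ± 88.2 CPM (SD, n = 6, WT-DHT) and 618.5 ± 64.6 CPM (SD, n = 5, WT-empty), all neighbours overlapped, and the 4 log2 fold changes, from -0.09 to 0.00, did not pass.

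*Utrn*, the gene for the dystrophin relative utrophin (ENSMUSG00000019820, GRCm38 chromosome 10, 12382188 to 12869365, minus strand), was not called in any of the 10 comparisons. Its gastrocnemius means were 131 ± 3.93 CPM in WT-sham (SD, n = 6), 130.3 ± 5.43 in WT-ORX (SD, n = 6), 125 ± 15.2 in KO-sham (SD, n = 6) and 143 ± 14.5 in KO-ORX (SD, n = 5). Its spinalis means lay between 93.0 ± 9.51 CPM (SD, n = 6, KO-DHT) and 103 ± 7.83 CPM (SD, n = 5, KO-empty). Neighbouring groups overlapped in both muscles. The utrophin value farthest from 0 was 0.20 for the interaction with ORX (unadjusted p of the edgeR test 0.0437, q = 0.497), and ORX in KO gave 0.19 (q = 0.0671), which passed under library-size scaling (0.30, q = 0.00817, in a range over the alternatives of 0.00817 to 0.189). Per kilobase of exon, *Utrn* averaged between 0.213 (KO-sham) and 0.251 (WT-ORX) of the *Dmd* level in the same library.

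*Dag1* encodes dystroglycan, the laminin receptor at the centre of the complex (ENSMUSG00000039952, GRCm38 chromosome 9, 108204634 to 108263958, minus strand), and it too was not called in any comparison. Its gastrocnemius range was 85.5 to 101 CPM in WT-sham (median 95.3), 94.3 to 114 in WT-ORX (median 102) and 78.0 to 104 in KO-sham (median 82.0), and KO-ORX libraries held 93.9, 95.8, 101, 108 and 109.5 CPM. The groups overlapped. *Dag1* in KO-ORX against KO-sham came nearest to the threshold there (log2 fold change 0.25, SE 0.07, q = 0.0139). It passed without KO-sham replicate 1, the highest KO-sham library (0.32, q = 0.000908), without KO-ORX replicate 3 (q = 0.00938), and with DESeq2 (q = 0.00778) or library-size scaling (q = 0.000445) and with the replicate block, in a range over the alternatives of 0.000445 to 0.0390. In the spinalis the WT-empty libraries held 141, 154, 169, 172 and 209 CPM, WT-DHT ran from 132 to 156 (median 139.7), KO-empty libraries held 136, 151, 157, 168 and 172 CPM, and KO-DHT ran from 122 to 146 (median 133). The DHT groups were the lower ones for *Dag1*, with log2 fold changes of -0.26 in WT (SE 0.08, q = 0.0231) and -0.23 in KO (q = 0.0642) that did not pass. Without WT-empty replicate 2 the WT value was -0.32 and passed (q = 0.00490).

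The sarcoglycans are the membrane subcomplex that stabilises dystroglycan, and 3 of its genes are among the 9. *Sgcb* (ENSMUSG00000029156, GRCm38 chromosome 5, 73632749 to 73647790, minus strand) ran from 90.3 to 101 CPM in WT-sham (median 94.1), from 89.0 to 104 in WT-ORX (median 92.2) and from 101 to 114 in KO-sham (median 108), and KO-ORX libraries held 103, 108, 109.5, 113 and 118 CPM. The KO groups were above the WT groups, apart from an overlap of a few CPM. *Sgcb* was higher in KO-sham than in WT-sham (log2 fold change 0.18, SE 0.04, q = 0.00739, 5 of 6 libraries above every WT-sham library), a call lost without KO-sham replicate 1, 2, 3, 4 or 6 or WT-sham replicate 2, 3, 4, 5 or 6 (q from 0.0106 to 0.0215), under library-size scaling and with only those groups fitted (q over the alternatives from 0.000920 to 0.0273). It was also higher in KO-ORX than in WT-ORX (0.23, SE 0.05, q = 0.00243, 4 of 5 libraries above every WT-ORX library), a call lost without KO-ORX replicate 2 (q = 0.0125) and with only those groups fitted (q over the alternatives from 0.000162 to 0.0163). ORX itself gave *Sgcb* values of -0.01 in WT and 0.04 in KO, which did not pass. In the spinalis, WT-empty libraries held 90.3, 101, 103, 113 and 127 CPM, WT-DHT ran from 73.9 to 98.9 (median 95.9), KO-empty libraries held 124, 126, 127, 130 and 138 CPM, and KO-DHT ran from 84.6 to 120 (median 105). All 6 KO-DHT libraries were below every KO-empty library. The *Sgcb* log2 fold change under DHT was -0.32 in KO (SE 0.09, q = 0.0220) and -0.22 in WT (q = 0.103), and neither passed in edgeR. DESeq2 gave q = 0.00867 for the KO value, in a range over the alternatives of 0.00867 to 0.0392.

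*Sgcd*, the δ-sarcoglycan gene (ENSMUSG00000020354, GRCm38 chromosome 11, 46896253 to 47988969, minus strand), ran from 65.0 to 75.7 CPM in WT-sham (median 68.0), from 66.7 to 72.8 in WT-ORX (median 68.2) and from 68.6 to 83.5 in KO-sham (median 73.9), and KO-ORX libraries held 75.4, 78.0, 81.7, 86.0 and 86.0 CPM. All 5 KO-ORX libraries were above every WT-ORX library, and *Sgcd* was called higher there (log2 fold change 0.23, SE 0.05, q = 0.00571). The call was lost without KO-ORX replicate 1, 2 or 4 or WT-ORX replicate 1, 2, 4 or 6 (q from 0.0124 to 0.0238), under library-size scaling and with the replicate block (q over the alternatives from 0.000820 to 0.0135). In sham muscle the KO against WT value was 0.12 (q = 0.159). Its spinalis means were 57.1 ± 5.38 CPM in WT-empty (SD, n = 5), 62.1 ± 3.01 in WT-DHT (SD, n = 6), 64.5 ± 5.23 in KO-empty (SD, n = 5) and 68.2 ± 11.2 in KO-DHT (SD, n = 6). Those groups overlapped for *Sgcd*, and no spinalis comparison passed.

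*Sgca* encodes the muscle-specific α-sarcoglycan (ENSMUSG00000001508, GRCm38 chromosome 11, 94962791 to 94976327, minus strand) and was not called in any comparison. Its gastrocnemius means were 99.1 ± 6.7 CPM in WT-sham (SD, n = 6), 93.3 ± 5.96 in WT-ORX (SD, n = 6), 103 ± 7.47 in KO-sham (SD, n = 6) and 92.7 ± 3.85 in KO-ORX (SD, n = 5). In the spinalis they were 97.1 ± 5.76 CPM in WT-empty (SD, n = 5), 107 ± 6.52 in WT-DHT (SD, n = 6), 112 ± 17.5 in KO-empty (SD, n = 5) and 122 ± 7.62 in KO-DHT (SD, n = 6). Neighbouring groups overlapped throughout. The *Sgca* value nearest the threshold was ORX in KO, at -0.16 (q = 0.0680). KO-DHT against WT-DHT, at 0.19 (q = 0.0881), passed under library-size scaling only (0.28, q = 0.00502, in a range over the alternatives of 0.00502 to 0.0881). In KO-ORX against WT-ORX, where *Sgcb* and *Sgcd* were called higher, *Sgca* had a log2 fold change of -0.01, and the difference between the genes was not tested.

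Other genes of the pathway were taken from 6 lists of 93 genes in all, of which 89 were tested in the ORX table and 88 in the DHT table. *Sgcz*, *Krt8*, *B4gat1* and *Ilk* were in neither table, and *Sntg2* was missing from the DHT table. Across the lists, edgeR called 11 of 89 genes after ORX in WT (3 higher, 8 lower), beside 5.45% of all genes, 10 of 89 after ORX in KO (5 higher, 5 lower), beside 5.57%, 24 of 88 under DHT in WT (17 higher, 7 lower), beside 11.3%, and 7 of 88 under DHT in KO (5 higher, 2 lower), beside 4.62%. Between genotypes it called 11 of 89 in sham muscle (3 higher, 8 lower), beside 5.3%, 9 of 89 after ORX (2 higher, 7 lower), beside 3.8%, 11 of 88 with empty implants (5 higher, 6 lower), beside 4.25%, and 15 of 88 with DHT (3 higher, 12 lower), beside 11.6%. For the interaction with DHT it called 7 of 88, 3 of them with a positive and 4 with a negative difference, beside 3.24%. For the interaction with ORX it called 0, with 12 at an unadjusted p under 0.05, 1 called by DESeq2 and 0 by limma-voom, beside 0.0228% of all genes. The same shares are the background for the counts of each single list and of the markers, and the lists were not tested against each other.

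Among 13 tested partners that bind the dystrophin complex (12 in the DHT table), 3 fell and 1 rose after ORX in WT, 3 fell in KO, 5 rose and 1 fell under DHT in WT, and 2 rose in KO. *Dtnb*, the gene for β-dystrobrevin, fell after ORX in WT (log2 fold change -1.27, SE 0.15, q = 1.18e-06) and in KO (-0.87, SE 0.17, q = 0.00111). Under DHT *Dtnb* rose in WT (2.31, SE 0.20, q = 3.09e-09) and in KO (1.28, SE 0.19, q = 7.75e-05). *Vcl* and *Des* shared these signs in WT. *Dtnb* was lower in KO in sham (-0.65, SE 0.15) and DHT muscle (-0.93, SE 0.17), with a called interaction with DHT (-1.02, SE 0.27, q = 0.0317) that was lost with limma-voom, at the stricter threshold and in 12 of the 22 fits that left out a library. The sham call was lost with only those groups fitted, with the replicate block and in 4 of 23 such fits. *Sntb1*, the gene of this list that fell under DHT in WT (-1.28), had a called interaction with DHT of the opposite sign (0.76). That call was lost at the stricter threshold and in 10 of the 22 fits that left out a library. *Cav3*, for the caveolin of muscle membranes, rose under DHT in WT (0.64, SE 0.08) and KO (0.51, SE 0.08), was lower in KO than in WT with DHT (-0.43, SE 0.08), and fell after ORX in WT (-0.26, SE 0.05) and KO (-0.25, SE 0.06), calls that library-size scaling lost. The KO call was also lost after thinning, with only those groups fitted and in 4 of 23 fits that left out a library. Between genotypes, *Nos1*, for the neuronal nitric oxide synthase held at the complex, was lower in KO in sham (-0.87, SE 0.09), ORX (-0.82, SE 0.10), empty (-0.85, SE 0.15) and DHT muscle (-1.44, SE 0.14).

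In the list of 23 tested integrin and costamere genes, which holds the neighbours of *Vcl* and *Itga7*, 2 fell after ORX in WT, 1 rose and 1 fell in KO, 5 rose and 2 fell under DHT in WT, and 3 rose in KO. *Itgb1*, the β1 partner of integrin α7, fell after ORX in WT (log2 fold change -0.22, SE 0.05, q = 0.00209) and rose under DHT in WT (0.36, SE 0.07, q = 0.000254), and both calls were lost under library-size scaling, as was its called interaction with DHT (-0.34, SE 0.09, q = 0.0466), which was also lost after thinning, at the stricter threshold and in 17 of the 22 fits that left out a library. *Lims1*, for the adaptor PINCH1 of the integrin-linked kinase complex, rose under DHT in WT (0.93, SE 0.08, q = 5.87e-09) and in KO (0.47, SE 0.08, q = 0.000477), with a called interaction (-0.47, SE 0.11, q = 0.0201) of the same sign as that of *Vcl*. That interaction was lost under library-size scaling and at the stricter threshold. Of the called interactions with DHT in this list, 2 were negative and 1 was positive. The positive one was *Itgb1bp2* (0.39), lost at the stricter threshold and in 11 of the 22 fits that left out a library. *Itgb1bp2* fell under DHT in WT (-0.28), a call lost with only those groups fitted and in 7 of the 22 fits. *Lims1* also fell after ORX in WT (-0.30, SE 0.07), a call lost under library-size scaling and in 7 of 23 fits that left out a library, and was higher in KO-empty than in WT-empty (0.40, SE 0.08), a call lost with only those groups fitted and in 4 of 22 such fits. *Sorbs2*, for a vinculin-binding adaptor, rose under DHT in WT (0.71, SE 0.12) and KO (1.01, SE 0.13). It was lower in KO than in WT in sham muscle (-0.47, SE 0.11), after ORX (-0.63, SE 0.12), with empty implants (-1.29, SE 0.13) and with DHT (-0.99, SE 0.12), and the sham call was lost in 6 of 23 fits that left out a library. *Fermt2*, for the integrin activator kindlin-2, was lower in KO in sham (-0.30, SE 0.04), ORX (-0.35, SE 0.04), empty (-0.46, SE 0.07) and DHT muscle (-0.60, SE 0.06), and fell after ORX in KO (-0.20, SE 0.04), a call lost under library-size scaling, with only those groups fitted and in 3 of 23 fits that left out a library. In the genotype comparisons of that list, 3 were lower in sham muscle, 3 lower after ORX, 3 lower and 1 higher with empty implants, and 6 lower and 1 higher with DHT.

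Of the 19 genes of the desmin network and the spectrin and ankyrin scaffold, 1 rose after ORX in WT and 1 in KO, 2 rose and 2 fell under DHT in WT, and 1 fell in KO. *Obsl1*, for the obscurin-like protein 1, had signs opposite to those of *Des* in the 4 treatment comparisons. It rose after ORX in WT (log2 fold change 0.80, SE 0.09, q = 7.70e-07) and KO (0.73, SE 0.10, q = 1.07e-05) and fell under DHT in WT (-0.88, SE 0.09, q = 3.36e-08) and KO (-0.35, SE 0.09, q = 0.00939), the KO call being lost with only those groups fitted and in 11 of the 22 fits that left out a library. It was higher in KO than in WT with empty implants (0.72, SE 0.09), where *Des* had 0.00, and with DHT (1.25, SE 0.08). The interaction with DHT was called for *Obsl1* (0.53, SE 0.12, q = 0.0113), and was lost at the stricter threshold. *Synm*, for synemin, the filament protein that assembles with desmin, rose under DHT in WT (0.42, SE 0.07, q = 0.000109). *Cryab*, for the desmin chaperone αB-crystallin, was higher in KO-empty than in WT-empty (1.01, SE 0.19, q = 0.00133). *Xirp2* was higher in KO in sham (0.33, SE 0.04) and ORX muscle (0.39, SE 0.05).

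Of 15 tested genes that glycosylate dystroglycan, *Rxylt1*, for a xylosyltransferase, was lower in KO in sham (log2 fold change -0.26), ORX (-0.38), empty (-0.43) and DHT muscle (-0.46), though the sham and empty calls were lost with only those groups fitted. In this list 1 rose and 1 fell after ORX in WT and under DHT in WT alike, and edgeR called 0 after ORX in KO (3 at an unadjusted p under 0.05, 1 by DESeq2, 0 by limma-voom) and 0 under DHT in KO (3 at an unadjusted p under 0.05, 0 by DESeq2 or limma-voom). Of 11 matrix ligands, 1 fell after ORX in WT, 3 rose after ORX in KO, 3 rose and 1 fell under DHT in WT, and 1 fell under DHT in KO. *Hspg2*, for perlecan, rose after ORX in KO (0.74, SE 0.11, q = 4.30e-05). *Lamb2*, for laminin β2, rose there too (0.41, SE 0.08), a call lost with only those groups fitted, and was the gene that fell under DHT in WT (-0.41, SE 0.08) and in KO (-0.52, SE 0.08). The 3 rises under DHT in WT were lost under library-size scaling and each in at least 2 of the 22 fits that left out a library. Of 8 membrane repair genes, *Anxa6* was lower after ORX in WT (-0.26, SE 0.04, q = 0.000160) and in KO (-0.22, SE 0.05), where the call was lost under library-size scaling, with only those groups fitted and in 1 of 23 fits that left out a library, and *Dysf*, for dysferlin, was higher under DHT in WT (0.36, SE 0.08, q = 0.00150), a call lost under library-size scaling and when only those groups were fitted.

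Because bulk muscle holds other cells, 49 markers in 11 lists were followed, all of them measured and none at 0 in every library. In all, edgeR called 5 markers after ORX in WT, 5 after ORX in KO, 6 under DHT in WT and 6 under DHT in KO, and between genotypes 3 in sham muscle, 4 after ORX, 1 (*Tnnt3*, lower) with empty implants and 6 with DHT. For each interaction it called 0 markers, with 9 at an unadjusted p under 0.05 in each, 0 called by limma-voom, and by DESeq2 1 for ORX and 0 for DHT. The marker genes named here were chosen after their values were seen. Where *Vcl*, *Des* and *Itga7* rose under DHT in WT, *Rgs5*, the most abundant of 5 smooth muscle and pericyte markers, was called higher (log2 fold change 0.45), and their summed level was 531 CPM on average in WT-DHT against 410.3 in WT-empty. *Rgs5* was the 1 of the 5 called and made up 70.3 to 75.8% of that sum in the spinalis groups. The sum was also higher without overlap in KO, 484 CPM in KO-DHT against 396 in KO-empty, where *Rgs5* was again the 1 called (0.34). There the *Vcl* log2 fold change of 0.33 narrowly missed the threshold in edgeR (q = 0.0121) and passed with DESeq2 (q = 0.00358). Of 4 regenerating-fibre markers, *Myog* and *Ncam1* were lower under DHT in WT, and the sum of all 4 was 20.4 CPM in WT-DHT against 35.3 in WT-empty. Under DHT in KO *Ncam1* and *Myh8* were lower, and this sum was 25.8 CPM in KO-DHT against 41.6 in KO-empty, with overlap. Of 4 endothelial markers *Pecam1* was higher under DHT in WT (0.33), with sums of 196 CPM in WT-DHT and 154 in WT-empty. Of 5 fibroblast markers *Dcn* was higher (0.54) and *Pdgfra* lower (-0.44) in the same comparison, with sums of 1830 and 1462 CPM. The part of these shifts in the *Vcl*, *Des* and *Itga7* results was not tested.

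Where *Vcl* was lower in KO-DHT than in WT-DHT, all 3 satellite cell markers, *Pax7*, *Calcr* and *Myf5*, were called higher, and their sum was 8.18 CPM in KO-DHT against 3.99 in WT-DHT, without overlap. Of 4 regenerating-fibre markers *Myog* was higher (0.97) in the same comparison. Of 10 myofibre markers 1 was called there, *Acta1* (-0.51), and of 2 tendon markers 1, *Scx* (-0.88), both lower. In the gastrocnemius, *Vcl* and *Des* were lower in KO-sham than in WT-sham. There 1 of 10 myofibre markers was called, *Acta1*, which was lower (-0.37). The myofibre sum was 224431 CPM in KO-sham against 215416 in WT-sham, with overlap. Of 3 satellite cell markers *Myf5* was higher (0.75), and of 5 macrophage markers *Csf1r* was lower (-0.29). The tendon sum, mostly *Tnmd*, was 22.7 CPM in KO-sham against 37.8 in WT-sham, and the satellite sum was 5.92 against 3.70 CPM. Where *Dmd*, *Sgcb* and *Sgcd* were higher in KO-ORX than in WT-ORX, 3 of 10 myofibre markers were lower, *Acta1* (-0.50), *Ckm* (-0.37) and *Tnnt3* (-0.41). Of 5 macrophage markers *C1qa* (-0.48) was lower. The satellite sum was higher without overlap, 6.93 CPM in KO-ORX against 5.22 in WT-ORX. After ORX, beside the lower *Des*, 1 of 10 myofibre markers was called in WT, *Myh1* (-0.61). In KO 3 were called, *Myh1* (-0.61), *Tnni2* (-0.26) and *Tnnt3* (-0.20), and all were lower. The myofibre sum was 219143 CPM in WT-ORX against 215416 in WT-sham and 202069 in KO-ORX against 224431 in KO-sham, with overlap. Of 4 regenerating-fibre markers *Myog* was higher in WT (0.80) and KO (0.71). Of 5 fibroblast markers *Lum* was higher in WT (0.59) and KO (0.57), and *Pdgfra* lower in WT (-0.23). The fibroblast sum was 1782 against 1944 CPM in WT and 2139 against 1619 in KO, with overlap. Of 5 macrophage markers *Csf1r* was lower in WT (-0.31). EdgeR called 0 adipocyte, Schwann cell or blood markers in any comparison, with at most 2 of a list at an unadjusted p under 0.05 and 0 called by DESeq2 or limma-voom, and their sums had means of 50.9 to 162 CPM (adipocyte), 61.3 to 92.6 CPM (Schwann cell) and 122 to 360 CPM (blood). The part of any marker shift in the results for the 9 genes was not tested.

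Other genes cover some of the same bases. In the GENCODE annotation, 2090 exon bases of *Vcl*, 25.5% of its exon length, are shared with *Ap3m1*, an adaptor-protein gene on the opposite strand. The library kit keeps strand information, but the strand setting used in counting is not stated. *Ilk*, which was in neither table, shares 76.7% of its exon bases with *Taf10* on the opposite strand. The smooth muscle marker *Tagln*, with group means of 0.327 to 0.504 CPM, shares 62.4% with *Gm48529* on the opposite strand. The part of the overlaps in these low or missing counts was not tested. *Ap3m1* averaged 20.7 to 28.8 CPM over the groups and was not called in any comparison, with log2 fold changes of 0.04 (q = 0.681) under DHT in WT and -0.07 (q = 0.469) for KO-DHT against WT-DHT, where *Vcl* gave 1.02 and -0.85. *Des* shares 220 exon bases, 5.86% of its length, with the antisense gene *Gm15179*, which averaged 9.30 to 20.6 CPM. *Gm15179* fell under DHT in WT (-0.65, q = 0.000579), where *Des* rose, and was lower in KO-empty than in WT-empty (-0.56, q = 0.00869), where *Des* had 0.00. Where *Des* was lower in KO-ORX than in WT-ORX and in KO-sham, *Gm15179* had the same sign and missed the threshold (-0.37, q = 0.0304, and -0.24, q = 0.151). The part of the shared bases in the *Vcl* and *Des* counts was not tested.

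**Figure D3:**
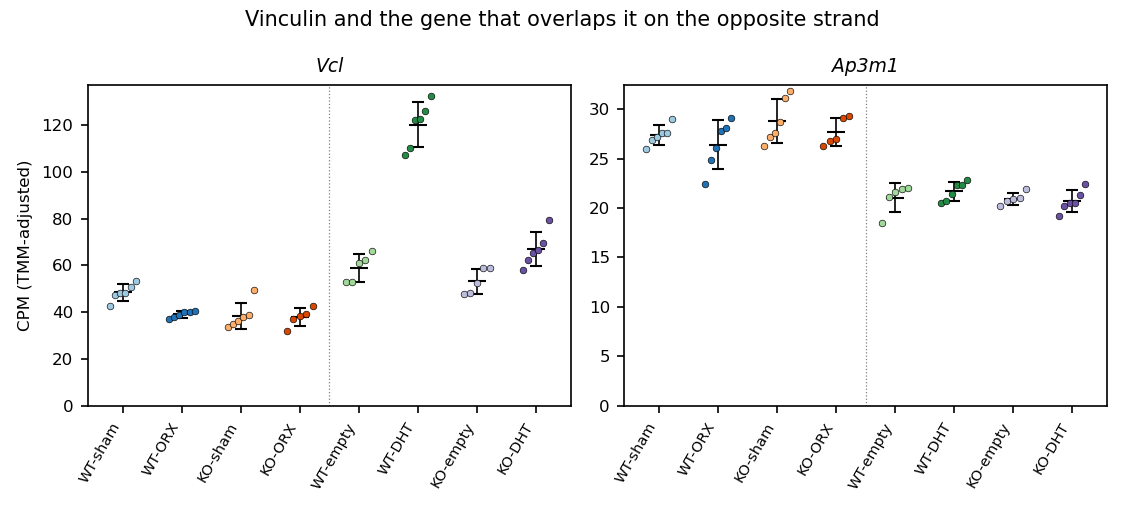
Levels in CPM of *Vcl* and of the overlapping gene *Ap3m1* in each of the 45 libraries (points), with the mean and SD of each of the 8 groups. *Vcl* averages 120.0 CPM in WT-DHT and 59.0 CPM in WT-empty, while the *Ap3m1* means of all 8 groups lie between 20.7 and 28.8 CPM.

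The genes whose levels ran most like those of each member were sought over all 45 libraries, on log2 CPM centred within each experiment, among 13473 genes. This is a description only, since the libraries share groups and experiments. For *Vcl* the nearest were *Ntmt1* (Pearson r = 0.929, Spearman rho = 0.831), *Slc25a30* (0.928 and 0.853) and *Stt3b* (0.926 and 0.822). For *Des* they were *Sqstm1* (r = 0.848, rho = 0.862), *Sars* and *Map3k4*, and for *Itga7* they were *Tom1l2* (r = 0.819, rho = 0.740), *Dupd1* and *Dhrs1*. *Sgcb* ran most like *Zfp106* (r = 0.890, rho = 0.862), *Mccc1* and *Ccdc47*, *Sgca* most like *Abcb8* (r = 0.827, rho = 0.799), *Crat* and *Uqcrc1*, and *Sgcd* most like *Lmo7* (r = 0.637, rho = 0.563), *Abcg2* and *Myot*. *Dmd* had *U2surp* (r = 0.781, rho = 0.772), *Eea1* and *Kcnq1ot1*, *Utrn* had *Dock1* (r = 0.741, rho = 0.699), *Lrp1* and *Rrbp1*, and *Dag1* had *Tpcn1* (r = 0.792, rho = 0.760), *Pag1* and *Ltbp4*. No other member was among the nearest genes of any member.

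RefSeq promoters (GRCm38.p6, the 250 bases before a RefSeq start, which need not be the start of the GENCODE gene given above) were available for 8 of the 9 genes, and *Itga7* had no entry. They are shown for *Vcl* and *Des*, which moved with treatment in WT, and for the first promoter of *Dmd*, which differed between genotypes after ORX. Capitals mark every match, on either strand, to the androgen receptor core hexamer TGTTCT, the full element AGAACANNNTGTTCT, the CArG box, the MEF2 element and TATAAA, and the E-box CANNTG was counted without capitals. *Vcl* (chr14:20929148-20929397, plus strand) holds 1 CArG box and no match to the hexamer, TATAAA or the E-box. *Des* (chr1:75360042-75360291, plus strand) holds 2 E-boxes and no other match. The first *Dmd* promoter (chrX:82948620-82948869, plus strand) holds 1 hexamer, 1 CArG box, 2 E-boxes, and 1 MEF2 element that overlaps 1 TATAAA. Among 32851 promoters of the same length, 16.1% hold the hexamer, 0.00913% the full element, 66.2% the E-box, 1.47% the CArG box, 2.92% the MEF2 element and 12.4% TATAAA. A match describes the letters of the sequence and is not a tested site.
Vcl: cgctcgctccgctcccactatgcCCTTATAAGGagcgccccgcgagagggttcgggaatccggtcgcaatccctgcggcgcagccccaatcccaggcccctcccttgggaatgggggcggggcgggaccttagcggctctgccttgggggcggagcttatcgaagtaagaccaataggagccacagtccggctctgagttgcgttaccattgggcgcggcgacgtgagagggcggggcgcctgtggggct
Des: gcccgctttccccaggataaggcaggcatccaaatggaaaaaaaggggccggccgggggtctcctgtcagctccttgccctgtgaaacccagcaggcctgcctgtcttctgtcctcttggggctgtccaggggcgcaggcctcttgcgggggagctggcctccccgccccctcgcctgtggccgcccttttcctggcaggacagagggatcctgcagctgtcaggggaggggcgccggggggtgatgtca
Dmd: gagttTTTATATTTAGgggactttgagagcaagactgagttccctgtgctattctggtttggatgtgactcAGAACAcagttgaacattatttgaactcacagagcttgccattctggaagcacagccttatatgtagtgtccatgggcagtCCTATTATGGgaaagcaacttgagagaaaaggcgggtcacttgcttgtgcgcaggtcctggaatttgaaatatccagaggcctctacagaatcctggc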

How the data were processed

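RNA from about 50 mg of muscle was made into libraries with the Illumina TruSeq Stranded Total RNA GOLD kit. The deposited tables hold raw counts per gene, which the authors made with STAR 2.7.1b, SAMtools 1.9, Picard 2.20.2 and featureCounts of Subread 2.0.0 on GRCm39, and which were not normalised. The annotation release is not stated. DHT columns could be matched to samples by group only. Symbols, GRCm38 positions and exon lengths came from GENCODE M21, which held 17435 of 17514 gene IDs in the ORX table and 16922 of 16987 in the DHT table.

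Each table was fitted in R 4.3.3 with edgeR 4.0.16, with trimmed-mean scaling, 1 mean per group, the spread shared over its 4 groups, and its quasi-likelihood test. The p-values were adjusted for every gene tested (Benjamini-Hochberg). A minimum of 0.5 CPM in 2 libraries removed 0 genes. Log2 CPM used a prior count of 2, and intervals are 95%. All 9 members were named in every comparison, and from each other list up to 3 called genes per direction with the smallest p. The members and lists were chosen with earlier results of these data known. Each called share above is over all genes tested.

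Alternatives were DESeq2 1.42.0, limma-voom (limma 3.58.1), library-size scaling, a minimum of 10 counts in every library, no filter, thinning to the smallest library, fitting only the groups compared, the other threshold (0.05, or 0.01 for interactions), a block for replicate number (ORX only) and leaving out each library. Python 3.11.15 with pandas 2.3.3 and matplotlib 3.10.9 made summaries and figures. The code was tested on simulated data. Depth of 26.7 to 55.4 M (megacounts) per library limits precision by counting error only.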

Additional observations from a re-analysis of the deposited data

Results flagged for a closer look

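In 4 of 80 groups of libraries examined, the highest or lowest library was set apart from the rest by more than a Dixon limit that chance alone passes in about 1 group in 20. In KO-ORX, replicate 3 had the lowest *Dmd* level, 783 CPM, where the other libraries held 889 to 927 CPM. In KO-sham, replicate 1 had the highest *Dag1* level, 104 CPM, where the others held 78.0 to 85.2 CPM. The same library had the highest *Vcl* level, 49.3 CPM, where the others held 33.8 to 38.7 CPM. In WT-DHT, the library with the lowest total held 34.8 M (megacounts), where the others held 50.5 to 53.9 M. The response of *Vcl* to DHT differed between genotypes by a tested interaction, with a log2 difference of -0.69.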

How the results depend on the processing

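The rise of *Vcl* and *Itga7* under DHT in WT, the lower *Vcl* in KO-DHT than in WT-DHT, the *Vcl* interaction with DHT, the fall of *Des* after ORX in WT and the higher *Dmd* in KO-ORX than in WT-ORX kept their direction and their call under every alternative and without any single library. Of 90 member values, 70 kept direction and side of the threshold under library-size scaling, 85 under DESeq2, 89 under limma-voom, 89 with at least 10 counts in every library, 90 without a filter, 86 after thinning and 85 at the other threshold. With only the compared groups fitted it was 63 of 72, and with the replicate block 42 of 45. Because the filter removed 0 genes, the fit without a filter was identical to the main fit and tested nothing.

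The number of members called was 1 after ORX in WT under library-size scaling and thinning. After ORX in KO it was 2 under DESeq2, the other threshold and the replicate block, 3 under library-size scaling and 0 with only the compared groups. It was 0 with only the compared groups for KO-sham against WT-sham and for KO-empty against WT-empty, 2 under library-size scaling for KO-sham against WT-sham, KO-ORX against WT-ORX and KO-DHT against WT-DHT, 3 for KO-ORX against WT-ORX after thinning, with only the compared groups and with the replicate block, 2 for DHT in WT with only the compared groups and 4 at the other threshold, and under DHT in KO 2 with DESeq2 and 3 at the other threshold. Without single libraries it ranged from 1 to 2 (ORX in WT), 0 to 2 (ORX in KO), 1 to 3 (KO-sham against WT-sham), 1 to 4 (KO-ORX against WT-ORX), 2 to 4 (DHT in WT) and 0 to 1 (DHT in KO), and stayed at 1 for KO-empty against WT-empty, KO-DHT against WT-DHT and the DHT interaction. For the ORX interaction edgeR called 0 of the members throughout (2 at an unadjusted p under 0.05, 0 with DESeq2 or limma-voom).

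Signs reversed only for values near 0 that were not called. Under library-size scaling these were 0.018 (*Dmd*), 0.033 (*Utrn*) and 0.034 (*Sgcb*) for ORX in WT, 0.096 (*Itga7*) and 0.090 (*Vcl*) for ORX in KO, 0.020 (*Dag1*), 0.038 (*Sgca*) and 0.0023 (*Vcl*) for KO-ORX against WT-ORX, -0.062 (*Utrn*) for DHT in WT, 0.00058 (*Dag1*) for KO-DHT against WT-DHT and 0.033 (*Sgca*) for the DHT interaction. Thinning gave 0.022 (*Sgcb*, ORX in WT) and 0.0022 (*Sgca*, KO-ORX against WT-ORX), the replicate block 0.0038 (*Itga7*, ORX in KO), and limma-voom 0.00032 (*Dmd*, DHT in KO). The 10-count filter gave -0.0023 (*Utrn*, DHT in WT), only the compared groups -0.0011 (*Utrn*, DHT in WT) and -0.0011 (*Dmd*, KO-DHT against WT-DHT), and DESeq2 -0.0046 (*Des*, KO-empty against WT-empty) and -0.0020 (*Dmd*, KO-DHT against WT-DHT).

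Over the fits without single libraries, the values that changed sign ranged for ORX in WT over -0.044 to 0.0069 (*Dmd*), -0.020 to 0.0075 (*Utrn*), -0.036 to 0.013 (*Sgcb*) and -0.010 to 0.035 (*Sgcd*). For ORX in KO the ranges were -0.043 to 0.048 (*Itga7*) and -0.067 to 0.061 (*Vcl*). For KO-ORX against WT-ORX they were -0.054 to 0.0036 (*Dag1*), -0.034 to 0.020 (*Sgca*) and -0.088 to 0.012 (*Vcl*). Under DHT they were -0.056 to 0.052 (*Utrn*, WT), -0.098 to 0.040 (*Dmd*, KO) and -0.0011 to 0.13 (*Sgcd*, KO). KO-empty against WT-empty gave -0.13 to 0.012 (*Dmd*), -0.036 to 0.063 (*Utrn*) and -0.052 to 0.098 (*Des*), KO-DHT against WT-DHT -0.057 to 0.047 (*Dmd*), and the DHT interaction -0.011 to 0.13 (*Dmd*), -0.059 to 0.087 (*Dag1*), -0.078 to 0.054 (*Sgca*) and -0.12 to 0.0087 (*Sgcd*).

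Calls over all genes at the other threshold numbered 1735 (ORX in WT), 1925 (ORX in KO), 1838 (KO-sham against WT-sham), 1260 (KO-ORX against WT-ORX), 1 (ORX interaction), 3078 (DHT in WT), 1840 (DHT in KO), 1557 (KO-empty against WT-empty), 3170 (KO-DHT against WT-DHT) and 273 (DHT interaction). The ORX interaction had 127 calls with DESeq2, 10 with limma-voom and 11 after thinning. With only the compared groups, 485 genes were called for ORX in KO, 505 for DHT in KO and 290 for KO-empty against WT-empty, and DESeq2 called 1201 for DHT in KO. Library-size scaling moved the median over all genes for ORX in KO from 0.01 to 0.12, so changes there are relative to that shift. Of the 98 calls of the 40 genes taken by smallest p from the other lists, not all of them named above, library-size scaling lost 21, fitting only the compared groups lost 19 of 91, the other threshold 7, thinning 5, the replicate block 3 of 41, limma-voom 1 and DESeq2 0, 29 were lost without at least 1 library, and none reversed. The labels do not say whether equal replicate numbers pair the ORX samples, so the block for them is an alternative only. DHT columns carry no replicate numbers, so no block was fitted there and DHT replicates are numbered by column order. The DHT column names hold other numbers that no sample label gives, and the highest of these are all in KO groups. Any effect of that order was not tested. The causes of the shifts between settings were not tested.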
